A study of Arabidopsis with 12 samples.

Results

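The cytokinin oxidase genes CKX1 to CKX7 of Arabidopsis thaliana were examined in RNA-seq data from whole seedlings. The members were taken by locus (AT2G41510, AT2G19500, AT5G56970, AT4G29740, AT1G75450, AT3G63440 and AT5G21482, in the order CKX1 to CKX7), and all 7 of 7 were found among the 32833 genes of the table. Seedlings of 2 genotypes, Col-0 as the wild type and bzip59, the SALK_024459 line of the transcription factor gene bZIP59, were grown for 7 days in continuous white light, and the shaded groups then spent 2 h in shade light, with red over far-red at 0.65. The 4 groups were thus Col-0 in white light, Col-0 in shade, bzip59 in white light and bzip59 in shade, with 3 libraries each and 12 in all. Only 1 insertion line was used, and nothing in the labels ties the 3 libraries to separate batches of plants. The p-values therefore measure only the spread between these samples, which may be technical.

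Cytokinin oxidases, also called cytokinin dehydrogenases, are flavin enzymes that cleave the side chain of cytokinins and so inactivate these hormones irreversibly. Cytokinins promote cell division in the shoot meristem and in young leaves and restrain growth of the root. In Arabidopsis, CKX2, CKX4, CKX5 and CKX6 are described as secreted enzymes, CKX1 and CKX3 as proteins of the endomembrane system or vacuole, and CKX7 as the cytosolic form. In shade, a low ratio of red to far-red light acts through phytochrome and raises auxin, and breakdown of cytokinin by CKX6 in leaf primordia is a described part of that response in this species.

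Values are TPM, the abundance of each transcript as a share of the library, which are scaled by transcript length and can therefore be set side by side between genes. Sequencing depth cannot be read from such values and is unknown. Each library held from 18950 to 19689 genes at 1 TPM or more. The library preparation was not stated to keep strand, so reads from stretches where genes overlap may not be told apart. The bZIP59 transcript (AT2G31370) lay between 17.5 and 26.3 TPM in the 6 Col-0 libraries and between 3.12 and 8.32 TPM in the 6 bzip59 libraries. All 6 shade genes used as a check (ATHB2, PIL1, IAA29, IAA19, YUC8 and HFR1) rose in shade in both genotypes. All 5 green tissue markers and all 5 root markers were above 0 in every library. Summed root markers ran from 98.25 TPM in bzip59 white light 2 to 222 TPM in Col-0 shade 1. Summed root hair markers ran from 8.5 TPM in Col-0 white light 2 to 53.4 TPM in Col-0 shade 1. Summed dehydration markers stood at 783 TPM in Col-0 shade 1 and 739 TPM in bzip59 shade 2, against at most 383 TPM in the other 10 libraries. COR15A, RD29A, KIN1, LTI30 and COR47 were each highest in those libraries. RAB18 and RD29B were not, at 22 and 5.84 TPM in Col-0 shade 1 and 18.5 and 4.02 TPM in bzip59 shade 2. In Col-0 white light 1 they measured 62.4 and 14 TPM. Seed storage markers summed to between 28.5 and 180 TPM in bzip59 white light and to at most 3.67 TPM in Col-0. In bzip59 shade libraries 1 to 3 they summed to 75, 8.38 and 1.54 TPM. Library 2 of bzip59 white light had a TMM scaling factor of 0.841, against at least 0.935 in the others. The part of these differences in the results below was not tested. Values without some of these libraries stand beside some of the CKX results.

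All 7 CKX genes had values above 0 in every library, at low to moderate levels, and no detection limit was applied. CKX6 was the member with the highest mean, at 8.46 TPM over the 12 libraries. That was above 64.2% of all genes in the table but above only 40.3% of the tested genes. CKX7 followed at 3.71, CKX5 at 3.34, CKX4 at 2.75 and CKX1 at 1.42 TPM. CKX2 at 0.71 and CKX3 at 0.44 TPM lay under the mean of 1 TPM required for testing, so 5 of the 7 members were tested among 19693 genes. CKX1 lay just above that limit and reached 1 TPM in 8 of the 12 libraries, while CKX2 just below it did so in 1 library.

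**Figure D1:**
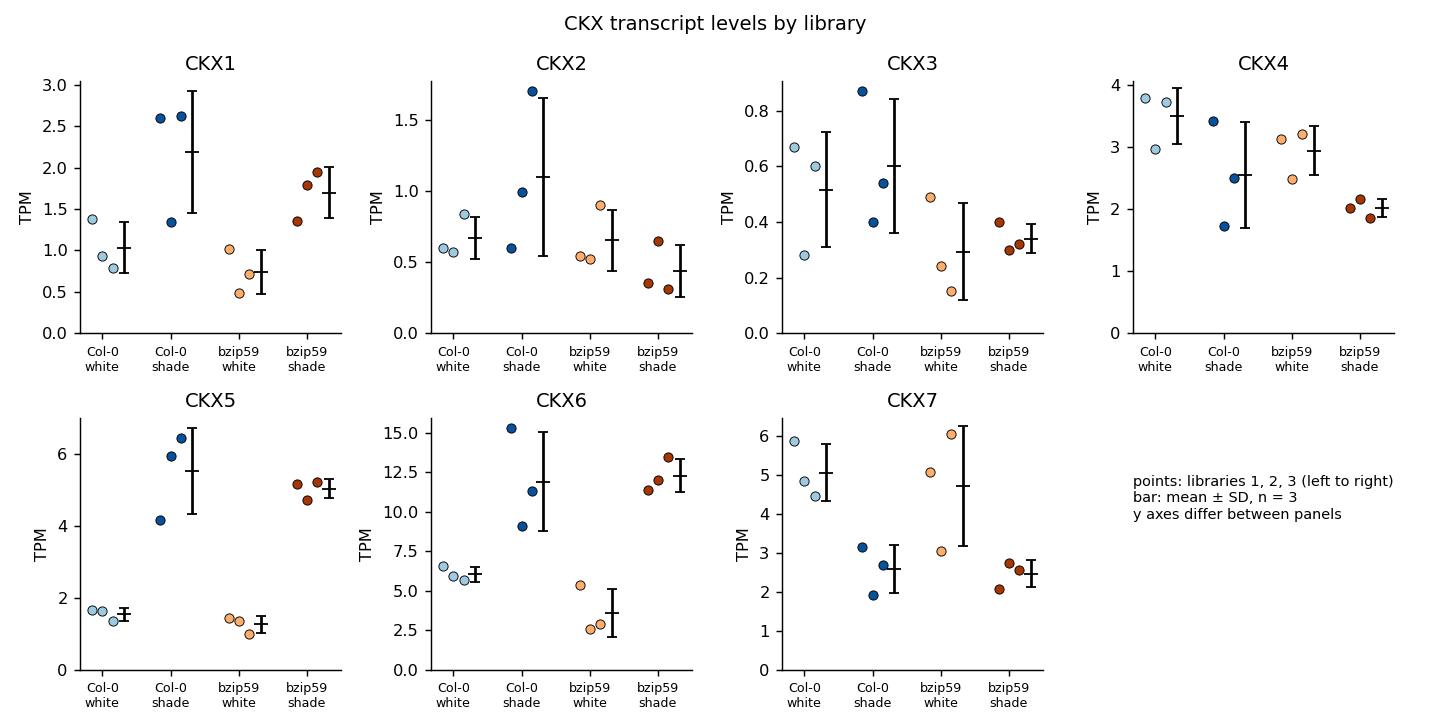
TPM of each CKX gene in the 12 libraries, with the 4 groups on the x axis, a point for each library and a bar for mean ± SD (n = 3); the y axes differ between panels. CKX5 and CKX6 lie higher in every shade library than in any white-light library of the same genotype, and CKX7 lies lower.

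The order of the members changed with light. In Col-0 white light CKX6 (6.05 ± 0.48 TPM, SD, n = 3) and CKX7 (5.05 ± 0.73 TPM) were the 2 highest and their ranges overlapped, followed by CKX4 (3.49 ± 0.45 TPM) and CKX5 (1.54 ± 0.18 TPM), each separate from the member above it. CKX5, CKX1 (1.03 ± 0.31 TPM), CKX2 and CKX3 each overlapped the next in that order. In Col-0 shade CKX6 (11.9 ± 3.14 TPM) and CKX5 (5.52 ± 1.19 TPM) were the 2 highest and did not overlap each other or the rest, while CKX7, CKX4, CKX1, CKX2 and CKX3 formed a chain of overlapping neighbours. The bzip59 groups showed the same leading members in shade, CKX6 (12.3 ± 1.06 TPM) and CKX5 (5.03 ± 0.27 TPM). In bzip59 white light CKX7, CKX6 and CKX4 overlapped in turn.

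The first comparison was of shade with white light within the wild type. CKX5 and CKX6 rose, and CKX7 fell. CKX1 and CKX4 did not pass the test. Limma on log2(TPM + 1) called these 3 of the 5 tested members at a Benjamini-Hochberg adjusted p under 0.05, where 9.92% of all tested genes were called, 3.42% higher and 6.5% lower. The libraries of the groups did not overlap for those 3 members, as for 27.9% of all tested genes. In these bulk samples a change in the number of cells of a type and a change of RNA per cell cannot be told apart.

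CKX5 had the lowest adjusted p of the tested members for shade, in each genotype. In Col-0 white light it measured 1.67, 1.62 and 1.34 TPM in libraries 1 to 3, and in Col-0 shade 4.17, 5.95 and 6.44 TPM. Every shade library was thus higher than every white-light library, with a 3.58-fold higher mean. The log2 change was 1.34 (SE 0.17, 95% interval 0.98 to 1.71, limma adjusted p = 0.000473), and the call held in all 23 alternatives in which CKX5 was tested (adjusted p from 0.000276 to 0.0134). In bzip59 CKX5 measured 1.43, 1.35 and 1 TPM in white light and 5.15, 4.72 and 5.22 TPM in shade. The groups again did not overlap, as was so for 32% of tested genes in this comparison, and the mean was 3.99-fold higher. The log2 change was 1.42 (SE 0.17, limma adjusted p = 0.000363), and it too held in all 23 alternatives.

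Most CKX5 signal came from transcript 1, which averaged 1.54 TPM in white light against 5.14 TPM in shade for Col-0, and 1.17 against 4.5 TPM for bzip59. Transcript 2 was listed at 0 in all 3 Col-0 white-light libraries and in bzip59 white light 3. The other white-light bzip59 libraries held 0.18 and 0.09 TPM of it. In shade it lay between 0.22 and 0.67 TPM in all 6 libraries. These transcript values are a description with no test. RefSeq records place 3 other genes over the CKX5 locus, the ubiquitin-conjugating enzyme gene UBC16 (AT1G75440) and the long noncoding RNA genes AT1G09553 and AT1G09557. UBC16 lay between 40 and 72.5 TPM, well above CKX5. It rose in Col-0 shade, with means of 47.3 ± 4.17 and 64.5 ± 8.58 TPM (log2 0.43, limma adjusted p = 0.0472). Its bzip59 means were 44 ± 3.52 and 56.6 ± 3.98 TPM (log2 0.36, limma adjusted p = 0.0933). For AT1G09557 the Col-0 means were 1.25 ± 1.99 TPM unshaded and 5.81 ± 4.12 TPM shaded (log2 1.77, limma adjusted p = 0.196). The part of these neighbours in the CKX5 values was not tested.

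CKX6, the most abundant member in shade, rose in both genotypes. In Col-0 it measured 6.58, 5.91 and 5.65 TPM in white light and 15.3, 9.07 and 11.3 TPM in shade. The groups did not overlap and the mean was 1.97-fold higher. However, Col-0 shade 1, the library highest in CKX6, also had the highest sums of dehydration, root and root hair markers. The log2 change was 0.85 (SE 0.22, 95% interval 0.36 to 1.33, limma adjusted p = 0.0329), and 0.66 without Col-0 shade 1 (limma adjusted p = 0.0966). This call ended in 11 of 24 alternatives, with adjusted p up to 0.143 when both shade libraries high in dehydration markers were left out. It was 0.0562 without the filter and 0.0626 with the 2 groups alone. The call also ended without Col-0 white light 1 (limma adjusted p = 0.0654), 2 (0.0992) or 3 (0.0805), Col-0 shade 3 (0.099), and bzip59 shade 2 (0.0591) or 3 (0.0502), with the direction kept in each.

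In bzip59 CKX6 rose as well. White-light libraries measured 5.36, 2.56 and 2.89 TPM and shade libraries 11.4, 12 and 13.5 TPM, a 3.41-fold higher mean with no overlap. The log2 change was 1.57 (SE 0.22, 95% interval 1.09 to 2.06, limma adjusted p = 0.00115), and the call held in all 24 alternatives. For this comparison 10.2% of tested genes were called, and CKX5 and CKX6 were the 2 called members of the 5 tested, both higher, where 6.49% of all genes were called higher and 3.7% lower. RefSeq records place a noncoding RNA gene, AT3G63445, over the CKX6 locus. It measured 11.3 ± 2.00 and 11.9 ± 0.80 TPM in unshaded and shaded Col-0 and 10.3 ± 1.59 and 11.3 ± 0.96 TPM in bzip59, without a called change (log2 0.08 and 0.13, limma adjusted p = 0.805 and 0.608).

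CKX7, the cytosolic form, was lower in shade in both genotypes. In Col-0 it went from 5.87, 4.84 and 4.45 TPM in white light to 3.15, 1.92 and 2.68 TPM in shade, with no overlap. The mean in white light was 1.96 times that in shade, and the log2 change was -0.76 (SE 0.22, 95% interval -1.24 to -0.29, limma adjusted p = 0.0456). This call ended in 13 of 23 alternatives, among them leaving out Col-0 white light 1 (limma adjusted p = 0.145), 2 (0.107) or 3 (0.0615), Col-0 shade 2 (0.167) or 3 (0.118), bzip59 white light 1 (0.0532), and bzip59 shade 1 (0.0604), 2 (0.0629) or 3 (0.0688), and the direction was the same in each. Without both shade libraries high in dehydration markers it was -0.88 (limma adjusted p = 0.0581). In bzip59 CKX7 measured 5.07, 3.04 and 6.04 TPM in white light and 2.08, 2.75 and 2.57 TPM in shade. These groups did not overlap either, but the change of log2 -0.69 (SE 0.22, 95% interval -1.16 to -0.22) missed the threshold (limma adjusted p = 0.0661). It passed without bzip59 white light 2 (log2 -0.92, limma adjusted p = 0.0158) and with TMM factors (log2 -0.78, limma adjusted p = 0.0221). The shade change in bzip59 had a median over all tested genes of 0.11 as deposited and 0.02 with TMM factors.

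CKX1 and CKX4 did not pass the test in shade. CKX1 measured 1.38, 0.93 and 0.79 TPM in Col-0 white light against 2.6, 1.34 and 2.63 TPM in Col-0 shade, and library 2 of the shade group lay within the white-light range. In bzip59 it measured 1.02, 0.49 and 0.72 TPM against 1.36, 1.79 and 1.95 TPM, without overlap. The log2 changes were 0.63 and 0.64 (95% intervals 0.13 to 1.13 and 0.14 to 1.14, limma adjusted p = 0.114 and 0.103). CKX1 reads were split over 3 transcripts whose order differed between libraries, and transcript 2 led in Col-0 shade 1 (2.53 TPM) and 3 (1.97 TPM) but was listed at 0 in Col-0 shade 2. RefSeq records also place 2 other genes over CKX1, at most 1.08 TPM in any library.

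In unshaded Col-0 CKX4 measured 3.78, 2.97 and 3.73 TPM, against 3.42, 1.72 and 2.49 TPM in Col-0 shade, with overlap. In bzip59 it measured 3.13, 2.48 and 3.21 TPM in white light and 2.02, 2.16 and 1.86 TPM in shade, without overlap. The log2 changes were -0.37 and -0.38 (95% intervals -0.78 to 0.05 and -0.79 to 0.03, limma adjusted p = 0.283 and 0.217). The Col-0 change was -0.19 without Col-0 shade 2 (limma adjusted p = 0.622) and -0.54 without Col-0 shade 1 (limma adjusted p = 0.0927). Transcript 2 carried most of CKX4. Transcript 1 was above 0 in 5 of the 6 white-light libraries, at 0.23 TPM or less, and listed at 0 in all 6 shade libraries.

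CKX2 and CKX3 were too low to be tested with the filter. In unshaded Col-0 CKX2 measured 0.6, 0.57 and 0.84 TPM, with 0.6, 0.99 and 1.7 TPM in Col-0 shade, 0.54, 0.52 and 0.9 TPM in bzip59 white light and 0.35, 0.65 and 0.31 TPM in bzip59 shade, with overlap in all 4 pairwise comparisons. The gene AT2G19490, which overlaps CKX2 in RefSeq records, lay between 2.82 and 6.39 TPM. CKX3 lay between 0.15 and 0.87 TPM over all 12 libraries. Without the filter, limma gave shade changes in Col-0 of log2 0.30 for CKX2 (adjusted p = 0.436) and 0.08 for CKX3 (adjusted p = 0.839), and in bzip59 of -0.20 (adjusted p = 0.562) and 0.06 (adjusted p = 0.86).

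**Figure D2:**
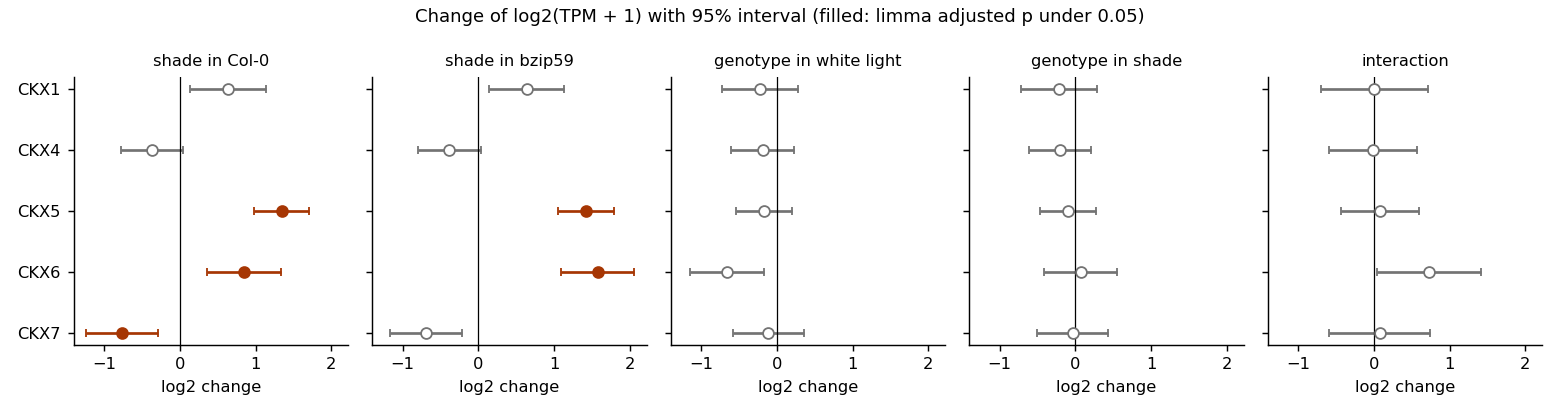
Log2 change of TPM + 1 for the 5 tested CKX genes in the 5 comparisons, with 95% intervals; filled points passed a limma adjusted p under 0.05. CKX5 at 1.34 and 1.42 and CKX6 at 0.85 and 1.57 are the called rises in shade, CKX7 at -0.76 in Col-0 is the called fall, and no genotype or interaction point is filled.

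The genotype comparisons asked whether bzip59 changed CKX levels within a light condition. By limma 0 of the 5 tested members passed in either light, where 0.0254% of genes were called in white light and 0.0406% in shade. At an unadjusted p under 0.05, 1 of the 5 passed in white light beside 15.5% of all genes, and 0 of the 5 in shade beside 2.71%. CKX6 in white light had the lowest p of the members. It measured 5.36, 2.56 and 2.89 TPM in bzip59 against 6.58, 5.91 and 5.65 TPM in Col-0, without overlap, as was so for 18.4% of all tested genes. Its log2 change of -0.66 (SE 0.22, 95% interval -1.15 to -0.18) failed after adjustment (unadjusted p = 0.012 and adjusted p = 0.251, both limma). The median over all genes in that comparison was -0.16, and with TMM factors CKX6 stood at -0.53 and the median at -0.01. Bzip59 white light 1 was the bzip59 library closest to Col-0 in CKX6, and without it the change was -0.92 (limma adjusted p = 0.0784). In its group that library had the highest sums of seed storage (180 TPM), root (170 TPM) and root hair markers (39.6 TPM). The same held for markers of dividing cells (143 TPM) and dehydration (383 TPM), but not for green tissue markers. The part of these differences in the CKX6 value was not tested. The other 4 tested members had log2 changes from -0.22 to -0.11.

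In shade the genotypes overlapped for all 7 members, where they did not for 9.76% of tested genes. Tested changes ran from log2 -0.22 for CKX1 to 0.07 for CKX6, each with limma adjusted p = 1. The 95% interval for CKX5 was -0.46 to 0.27 and that for CKX6 -0.42 to 0.55. Changes inside those intervals were not excluded. CKX2, untested with the filter, measured 0.44 ± 0.19 TPM in bzip59 shade and 1.1 ± 0.56 TPM in Col-0 shade. Without the filter its genotype change in shade was log2 -0.52 (unadjusted p = 0.0163 and adjusted p = 1, both limma).

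Some bZIP59 transcript remained in bzip59. The interaction, the shade change in bzip59 less that in Col-0, asked whether the shade response differed between the genotypes. It was called for no member and for 0 of 19693 genes by limma, with 1577 genes at an unadjusted p under 0.05, or 8.01%. CKX6 had a value of 0.73 (SE 0.31, 95% interval 0.04 to 1.42, unadjusted p = 0.0393 and adjusted p = 0.617, both limma), against a median of 0.15 over all tested genes. It kept that direction in all 23 alternatives, from 0.54 to 0.99. CKX5 stood at 0.08 (95% interval -0.44 to 0.60), CKX7 at 0.08, CKX1 at 0.004 and CKX4 at -0.02, and the sign of these 4 changed in some alternatives.

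The family total was higher in shade in both genotypes. Summed over the 7 genes, CKX transcript in unshaded Col-0 measured 20.6, 17.1 and 17.4 TPM, with 30.1, 21.4 and 27.8 TPM in Col-0 shade. In bzip59 it measured 17, 10.7 and 14.9 TPM in white light and 22.8, 24.4 and 25.7 TPM in shade. The groups did not overlap in either case, with 1.44-fold and 1.71-fold higher means, and the two-sided exact permutation p was 0.1, the smallest that 3 against 3 libraries allow. Between genotypes in white light, the highest bzip59 sum was 17.04 and the lowest Col-0 sum 17.12 TPM (exact permutation p = 0.1). Divided by TMM factors, an alternative chosen after the values were seen, they were 16.5 and 16 TPM, so the genotypes overlapped (exact permutation p = 0.2). In that comparison 72.4% of all tested genes lay below 0 as deposited. In shade the genotypes overlapped (exact permutation p = 0.5). With TMM factors the shade means were 1.48-fold and 1.60-fold higher, still without overlap.

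**Figure D3:**
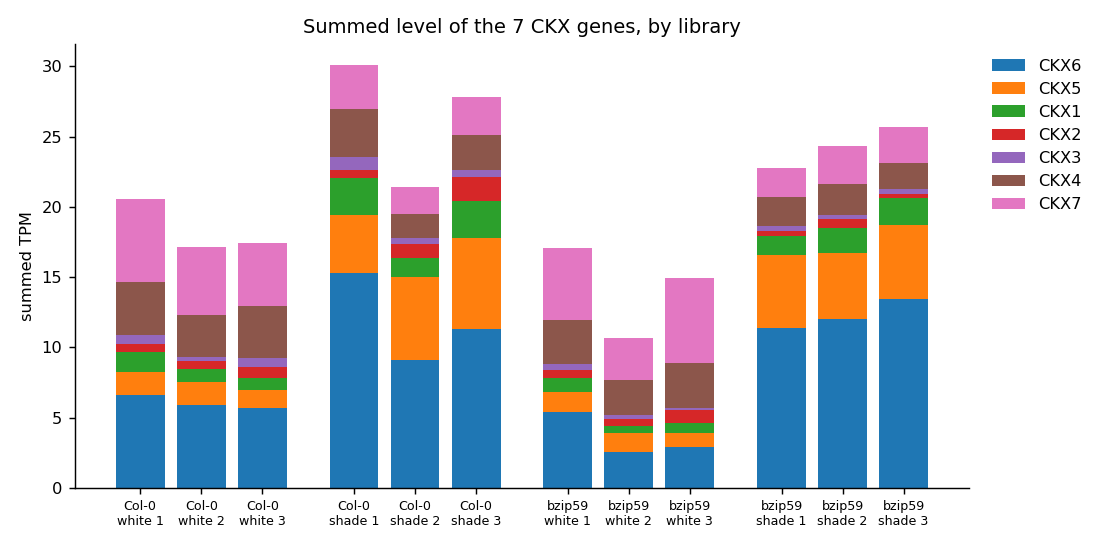
Summed TPM of the 7 CKX genes in each library, with bars starting at 0 and divided by member. The shade sums run from 21.4 to 30.1 TPM and the white-light sums from 10.7 to 20.6 TPM; CKX5 and CKX6 take the larger part of every shade bar.

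The make-up of that total also differed between light conditions. CKX5 and CKX6 together made up 41.4 ± 2.21% of it in Col-0 white light and 66.2 ± 3.46% in Col-0 shade. In bzip59 their share was 34.2 ± 7.19% in white light and 71.3 ± 2.39% in shade. CKX4 and CKX7 together went from 46.5 ± 0.79% to 19.1 ± 2.46% in Col-0 and from 53.9 ± 7.23% to 18.5 ± 1.51% in bzip59. These pairs were joined after their values were seen, so the shares are a description. A share is set by all members at once, and the fall of CKX4 and CKX7 in it includes the rise of the others.

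Other genes of the cytokinin pathway were taken from 9 lists of 61 genes, of which 51 were tested. In Col-0 shade 1 rose and 3 fell, and in bzip59 shade 3 rose and 3 fell, or 4 of 51 and 6 of 51 beside 9.92% and 10.2% of all tested genes. The median change was -0.07 and 0.05, beside medians over all genes of -0.01 and 0.11. In neither genotype comparison, nor in the interaction, was any of the 51 called.

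Few synthesis genes could be tested. Of 11 genes, the IPT enzymes that make the cytokinin side chain and the CYP735A hydroxylases, 5 were tested and 0 passed by limma in either genotype, beside 9.92% and 10.2% of all tested genes, with medians of log2 -0.005 and 0.11. At an unadjusted p under 0.05 the count was also 0 of 5 in each genotype. Of 8 LOG genes, which release the active base from its nucleotide, 6 were tested. LOG1 fell in Col-0, where its mean was 58.9 ± 10.1 TPM unshaded and 30.4 ± 8.54 TPM shaded (log2 -0.96, SE 0.20, limma adjusted p = 0.00988). Leaving out the third Col-0 shade library ended that call, at a limma adjusted p of 0.0511, as did the 2 groups alone, at 0.0631. LOG1 stood at log2 -0.38 in bzip59 (limma adjusted p = 0.239), and the interaction was not called (log2 0.57, limma adjusted p = 0.618).

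Among 5 genes of conjugation and salvage, UGT73C5 fell in both genotypes. It went from 21.5 ± 2.84 to 3.9 ± 1.25 TPM in the wild type (log2 -2.22, limma adjusted p = 0.000357) and from 15.1 ± 3.08 to 4.49 ± 1.92 TPM in bzip59 (log2 -1.59, limma adjusted p = 0.00317). UGT73C5 is known mainly as a brassinosteroid glucosyltransferase and has close paralogs, so its values are uncertain. UGT76C2, which glucosylates cytokinin bases, rose in bzip59 from 10.3 ± 1.74 to 15.1 ± 1.45 TPM (log2 0.52, limma adjusted p = 0.0435). That call ended in 18 of 24 alternatives, with adjusted p up to 0.152.

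Of 5 transport genes, PUP14, an importer that removes cytokinin from the space outside the cell, rose in both genotypes. It went from 50.4 ± 16.4 to 103 ± 10.4 TPM in the wild type (log2 1.07, limma adjusted p = 0.0205) and from 48.2 ± 9.74 to 126 ± 27.5 TPM in bzip59 (log2 1.36, limma adjusted p = 0.00609). The Col-0 call was lost at limma adjusted p = 0.0612 when Col-0 white light 2 was left out, and at 0.0708 or 0.0885 when Col-0 shade 2 or 3 was. With the 2 groups alone it was lost as well (limma adjusted p = 0.0706). The bzip59 call held in all 24 alternatives.

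On the signalling side, the 3 receptor genes AHK2, AHK3 and AHK4, the 6 phosphotransfer genes AHP1 to AHP6 and the 6 tested of 7 type-B response regulators, which activate transcription, had 0 called changes by limma in either genotype, a count of 0 of 15 read beside 9.92% and 10.2% of all tested genes. At an unadjusted p under 0.05, 0 of the 15 passed in Col-0 and 5 of the 15 in bzip59, beside 22.6% and 26.6% of all tested genes. The type-A response regulators, which are rapid cytokinin targets and dampen the signal, lay mostly below 0. Of 9 tested genes of 10, 8 had a negative shade change in Col-0 and 8 in bzip59, with medians of log2 -0.52 and -0.51, beside 51.5% and 37.3% of all tested genes below 0. ARR4 fell in Col-0 from 52.2 ± 9.4 to 27.7 ± 3.59 TPM (log2 -0.88, limma adjusted p = 0.00622) and stood at -0.47 in bzip59 (limma adjusted p = 0.0978), with an interaction of 0.41 that was not called (limma adjusted p = 0.632).

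ARR7 and ARR5 fell in bzip59. ARR7 went from 26.2 ± 3.54 to 15.7 ± 2.31 TPM (log2 -0.71, limma adjusted p = 0.00952), and in Col-0 its change was -0.48 (limma adjusted p = 0.0574). ARR5 went from 16.6 ± 5.62 to 9.35 ± 0.88 TPM (log2 -0.72, limma adjusted p = 0.0361), and in Col-0 its change was -0.55 (limma adjusted p = 0.103). The ARR5 call ended in 11 of 24 alternatives, with adjusted p up to 0.138. The ARR7 call ended without bzip59 shade 1 (limma adjusted p = 0.0529). Of the 6 cytokinin response factors, CRF5 rose in bzip59 from 2.79 ± 0.67 to 4.97 ± 0.45 TPM (log2 0.67, limma adjusted p = 0.0178). The CRF5 call ended without bzip59 white light 2 (limma adjusted p = 0.0518) or 3 (0.0688) or bzip59 shade 1 (0.0872). It also ended with the 2 groups alone (limma adjusted p = 0.0756) and without both shade libraries high in dehydration markers (0.0519).

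**Figure D4:**
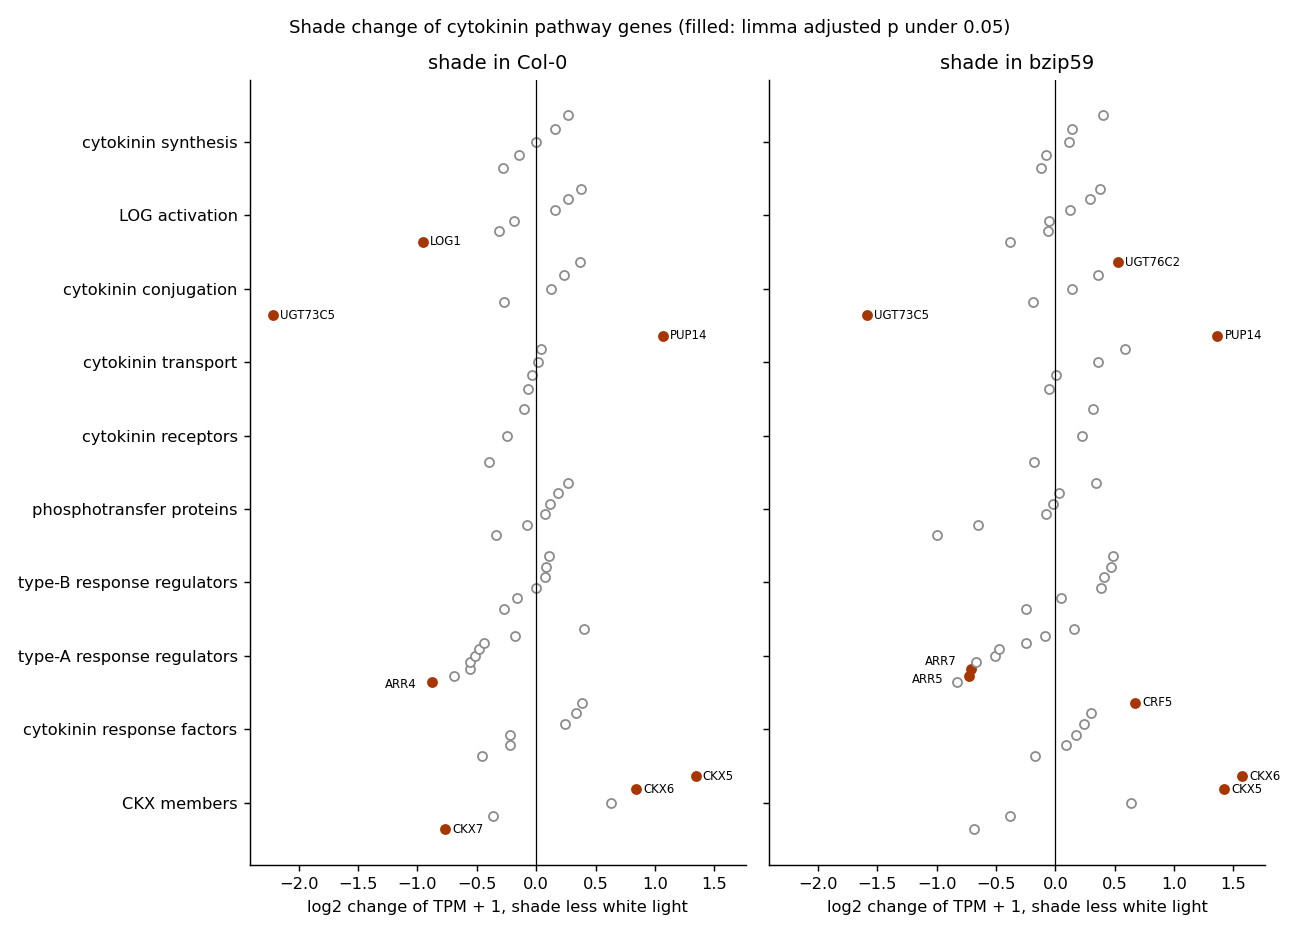
Shade change (log2 of TPM + 1) of each tested gene of the 9 cytokinin lists and of the CKX family, in Col-0 on the left and bzip59 on the right; filled, named points passed a limma adjusted p under 0.05. CKX5 at 1.34 and 1.42, CKX6 at 0.85 and 1.57 and PUP14 at 1.07 and 1.36 are the genes called higher in both genotypes.

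The genes whose levels ran most closely with each tested member over the 12 libraries were found by Pearson correlation of log2(TPM + 1) against 19692 genes, given as a description. The libraries share their light condition and, within a library, its composition. For CKX5 these were AT5G57760 (r = 0.99), AT2G39980 (r = 0.98) and EXO (AT4G08950, EXORDIUM, r = 0.98), a growth gene induced by brassinosteroid. EXO went from 30.1 to 151 TPM in Col-0 and from 28.1 to 148 TPM in bzip59. After the group means were removed, the correlations with CKX5 were 0.71, 0.72 and 0.57. The genes were chosen on these same values, so these correlations are not independent of the choice.

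For CKX6 the nearest genes were IAMT1 (AT5G55250, r = 0.97), which methylates the auxin indole-3-acetic acid, AT1G55360 (r = 0.97) and BR6OX2 (AT3G30180, r = 0.97), an enzyme of brassinosteroid synthesis. IAMT1 averaged 2.84 and 6.03 TPM in unshaded and shaded Col-0, and 1.97 and 6.27 TPM in bzip59. For CKX7 they were PHS2 (AT3G46970, r = 0.97), a cytosolic glucan phosphorylase, FAH1 (AT4G36220, r = 0.97), a hydroxylase of the phenylpropanoid pathway, and OPT7 (AT4G10770, r = 0.97), an oligopeptide transporter. For CKX4 they were the auxin importer gene LAX3 (AT1G77690, r = 0.94), AT3G50300 (r = 0.94) and AT1G13830 (r = 0.92), and for CKX1 AT2G34510, AT3G29075 and AT5G08780, each at r = 0.95. With group means removed, the correlations of CKX1, CKX4, CKX6 and CKX7 with these genes ran from 0.80 to 0.95. They too are not independent of the choice of genes, which used the same libraries.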

How the data were processed

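Whole seedlings were profiled by RNA-seq in 4 groups of 3 libraries, assigned from the sample titles; the treatment text names shade for all samples, white-light ones included. RNA was selected on oligo(dT) beads, per the labels' protocols. Reads were processed with fastp, cutadapt, HISAT2 (TAIR10) and DESeq2, per the submitters' processing notes; for versions, strandedness and the TPM tool nothing is stated. Deposited values are TPM of each transcript, per the file headers. TPM of 54013 transcripts were summed to 32833 genes; the 4 deposited group mean columns were not used. Depth is unknown, so no counting interval can be given.

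Limma 3.58.1 (R 4.3.3) with an intensity trend was fitted to log2(TPM + 1) of those genes that averaged 1 TPM or more, in a single fit of 4 group means with 5 contrasts, and adjusted p-values (Benjamini-Hochberg over 19693 genes) under 0.05 were called. Log2 changes understate changes of low genes. TMM factors (trimmed mean of M values) were computed on TPM directly. The fit was tested on simulated data. RefSeq records (TAIR10.1; 32548 genes matched) gave symbols and overlapping genes; no coordinates are printed, because the builds differ in release. Figures used Python 3.11.15, numpy 2.4.6, pandas 2.3.3 and matplotlib 3.10.9.

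Members and lists were chosen with earlier results of these data known. Named were all CKX genes, up to 3 called genes of each cytokinin list and comparison, the 3 best correlated genes of each tested member, and check genes. Genes overlapping a CKX locus were added afterwards. Alternatives were pseudocounts of 0.1 and 0.5, no filter or a mean of 5 TPM, TMM, quantile normalization and no trend. Others were a replicate block, the 2 groups alone, the highest transcript per gene, each library left out, and 2 pairs of libraries left out. A log2 cut of 1 was applied only to the count of all genes. It is not among the alternatives counted for single genes. Among the called shade changes, CKX6, CKX7, LOG1 and ARR4 in Col-0 were smaller than that cut. So were UGT76C2, ARR5, ARR7 and CRF5 in bzip59. TMM factors for the summed CKX level were added after the values were seen.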

Additional observations from a re-analysis of the deposited data

How the results depend on the processing

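With each library left out in turn, genes called for shade in Col-0 ran from 976 to 2424 (1954 with all) and in bzip59 from 871 to 3305 (2007 with all), and CKX members called from 1 to 3 and from 2 to 3. Genotype calls ran from 3 to 14 in white light and from 5 to 9 in shade, and interaction calls from 0 to 4. With the 2 groups alone the calls were 1165 and 1191 for shade in Col-0 and bzip59, with 1 CKX member in Col-0, and 1 and 2 for genotype in white light and shade. A log2 cut of 1 left 767 and 675 shade calls. Without the filter 1 CKX member was called for shade in Col-0, 8 genes for genotype in white light and 2 for the interaction. A mean of 5 TPM left 1 CKX member tested, which was called for shade in each genotype, and 4 genes called for genotype in shade. Without both shade libraries high in dehydration markers, 1 CKX member was called for shade in Col-0, 9 genes for genotype in white light and 7 for the interaction, and without both white-light libraries numbered 2 the interaction had 2. The highest transcript per gene gave 3 genotype calls in white light. The causes were not tested.

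Changes that turned direction were all uncalled. CKX7 for genotype in white light was 0.022 with TMM factors, 0.071 after quantile normalization, 0.095 with both unshaded libraries numbered 2 left out, and from -0.28 to 0.12 over libraries left out. For genotype in shade, CKX7 was 0.017 without the dehydration-high libraries, and over libraries left out CKX5 ran from -0.25 to 0.0076, CKX6 from -0.10 to 0.25 and CKX7 from -0.18 to 0.076. The interaction with TMM factors was -0.057 for CKX1, -0.020 for CKX5 and -0.054 for CKX7, after quantile normalization -0.034 for CKX1 and -0.082 for CKX7, and with both unshaded libraries numbered 2 left out -0.071 for CKX1 and -0.13 for CKX7. Without the dehydration-high libraries it was 0.12 for CKX4 and -0.044 for CKX5, and with the highest transcript 0.052 for CKX4. Over libraries left out it ran from -0.20 to 0.12 for CKX1, -0.19 to 0.16 for CKX4, -0.082 to 0.18 for CKX5 and -0.16 to 0.25 for CKX7.

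Deviations of same-numbered libraries correlated at -0.15 to 0.25 (18 pairs, median 0.04, 3 over 0.1). Those of differently numbered libraries correlated at -0.28 to 0.16 (36 pairs, median 0.005, 2 over 0.1). Of 12 libraries, 9 correlated best with a library of their own number, although same-numbered pairs were only 18 beside 36 others. These values do not settle whether replicate numbers pair the libraries, and this was not tested. With the replicate block 1944, 2220, 4, 8 and 0 genes were called in the 5 comparisons and 3, 2, 0, 0 and 0 CKX members, and UGT76C2 in bzip59 was lost (limma adjusted p = 0.0536). Depth is unknown, and values under about 1 TPM limit CKX2 and CKX3 most.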
